A study of Mus musculus with 12 samples.

Results

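The genes described here encode the machinery that carries nuclear-encoded proteins into mitochondria and keeps them folded and in order once inside. Members were all genes whose probe set carries a single symbol beginning with Timm or Tomm and a digit, together with a named set of mitochondrial chaperones, proteases and prohibitins. This gave 33 of the 12393 genes with such a probe set, measured by 65 of the 22626 probe sets tested. Where a gene had several probe sets, the brightest on average across the 12 arrays stood for it. Phb, which the rule names, and Tomm5 and Tomm6, which its prefix would take, are listed only on probe sets that carry several symbols, and were not analysed here.

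The samples were white gastrocnemius, the pale and mostly fast-fibred part of a calf muscle, from male C57BL/6 mice aged 17 to 18 weeks and fasted overnight. There were 6 mice carrying an AMPK γ3 R225Q transgene (γ3 is a regulatory subunit of AMPK, an enzyme activated when cells run short of energy) and 6 wild-type littermates, with 1 array per mouse. All mice were of generation F5 and none was fed, so the comparison is between genotypes in fasted muscle. The promoter that drives the transgene and the number of founder lines are not given in the sources used here, and the transgene's own transcript was not analysed here, which leaves the genotype labels without that check.

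Mitochondria make only a few of their own proteins, and the rest are synthesised in the cytosol and imported. The TOM complex of the outer membrane receives precursors. The TIM23 complex passes those with a cleavable targeting sequence on towards the matrix, pulled by a motor built around the mitochondrial Hsp70, whereas the TIM22 complex, served by small chaperones of the intermembrane space, inserts carrier proteins into the inner membrane. In the matrix, chaperonins fold the arrivals and ATP-dependent proteases remove those that fail. Muscle fibres rely on this machinery to build their respiratory chains.

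Promoters are shown first, for letters that many but not all of these genes have there and that the choice of members did not use. The RefSeq promoter table (GRCm38.p6; 250 bases before to 50 bases after each start) held 32 windows for 29 of the 33 members. The letters CCGGAAG, the core recognised by ETS-family factors such as GABP, were found on either strand in 16 of these 32 windows (50%), against 14.0% of the 12559 windows of all measured genes and 8.86% of all 32851 windows. The member windows had a median GC content of 60.5%, against 59.0% for measured genes and 52.7% for all windows. Their median count of the letters CG was 22, against 17 for measured genes and 7 for all windows. CCGGAAG itself holds a CG, and windows alike in CG count were not compared. Members' windows are not all independent, since those of Hspd1 and Hspe1 cover nearly the same bases and Tomm34 has overlapping windows.

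Among the members described array by array below, those with the match before the start are shown around the last match before it, with CCGGAAG or its complement in capitals. Tomm22 lies at chr15:79670794-79670860 on the plus strand, Timm23 at chr14:32201902-32201968 on the minus strand, Timm29 at chr9:21592480-21592546, Grpel1 at chr5:36464951-36465017 and Phb2 at chr6:124712186-124712252, all on the plus strand.
Tomm22: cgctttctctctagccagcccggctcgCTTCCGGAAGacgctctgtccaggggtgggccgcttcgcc
Timm23: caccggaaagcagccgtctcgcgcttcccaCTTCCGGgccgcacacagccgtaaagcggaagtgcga
Timm29: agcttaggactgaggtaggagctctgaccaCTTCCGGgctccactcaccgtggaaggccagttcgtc
Grpel1: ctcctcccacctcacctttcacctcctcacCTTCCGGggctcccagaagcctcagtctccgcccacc
Phb2: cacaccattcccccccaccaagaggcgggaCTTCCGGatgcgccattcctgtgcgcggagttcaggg
Counted from the start, the match shown began at position -47 in Timm23 and -73 in Phb2, but at -204 in Grpel1 and -212 in Timm29. In Tomm22 a pair of matches overlapped on opposite strands, at positions -47 and -44.

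Hspd1 and Hspe1, which encode the mitochondrial chaperonin and its co-chaperonin, are neighbours that are transcribed away from each other from a shared region. Its 250 bases before the Hspe1 start, at chr1:55087898-55088147 on the plus strand, are given with 3 kinds of letters in capitals: TGCAAT, the core bound by the stress factor CHOP, the heat shock element (GAA, TTC and GAA with any 2 bases between neighbours, on either strand), and CCGGAAG.
Hspe1: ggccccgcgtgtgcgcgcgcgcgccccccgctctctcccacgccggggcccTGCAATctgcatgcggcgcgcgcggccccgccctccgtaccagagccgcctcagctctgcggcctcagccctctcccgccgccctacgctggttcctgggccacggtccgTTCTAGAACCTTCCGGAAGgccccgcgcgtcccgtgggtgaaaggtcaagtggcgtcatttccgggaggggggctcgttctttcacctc
The longer run of capitals holds a pair of overlapping heat shock elements and a pair of overlapping CCGGAAG matches, which share bases with each other. Hspd1, Hspe1 and Timm9 were the 3 members whose windows held the heat shock element, 3 of 32 windows against 0.494% of the windows of measured genes. In all, 8 motifs were searched on both strands. The site of NRF1 (GCGC, any base, TGCGC) was in 4 member windows (12.5% against 7.96% of measured-gene windows), TGCAAT in 3 (9.38% against 6.28%), CCAAT in 9 (28.1% against 37.1%), the short heat shock letters GAANNTTC in 3 (9.38% against 6.15%), AAGATGGC of YY1 in 1 (3.13% against 3.60%) and TCAAGGTCA of ERR factors in 1 (3.13% against 0.287%). For CCGGAAG, the heat shock element, TGCAAT and GAANNTTC the matches of Hspd1 and Hspe1 were the same bases read on opposite strands, counted in both windows. A CCGGAAG match of Tomm34 was likewise counted in overlapping windows of that gene. A match describes these letters and is no evidence that a factor binds.

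In the genotype comparison none of the 33 members passed the test, which was limma on log2 intensities with Benjamini-Hochberg adjustment over all 22626 probe sets and a threshold of 0.05. The test called 0.0888% of genes and 0.0707% of probe sets in either direction, with 0.0442% of probe sets higher and 0.0265% lower in transgenic muscle. At an unadjusted p under 0.05 there was 1 member, Afg3l2, where 4.91% of genes lay, and the genotypes overlapped in every member, as they did in all but 0.533% of genes. Members were higher in transgenic muscle in 23 cases and lower in 10, with a median log2 fold change of 0.04, where 49.4% of all genes were higher and the median was -0.0013. Standard errors of the members' log2 fold changes ran from 0.04 to 0.17, and 28 of the 33 members had a 95% interval lying wholly within 0.3 of 0. The intervals of the other 5, Afg3l2, Timm17a, Timm10, Yme1l1 and Clpx, reached past 0.3 upwards, and no member's interval reached 0.3 downwards (lowest bound -0.27, Clpx). The plot of fold changes by role shows every member.

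**Figure D1:**
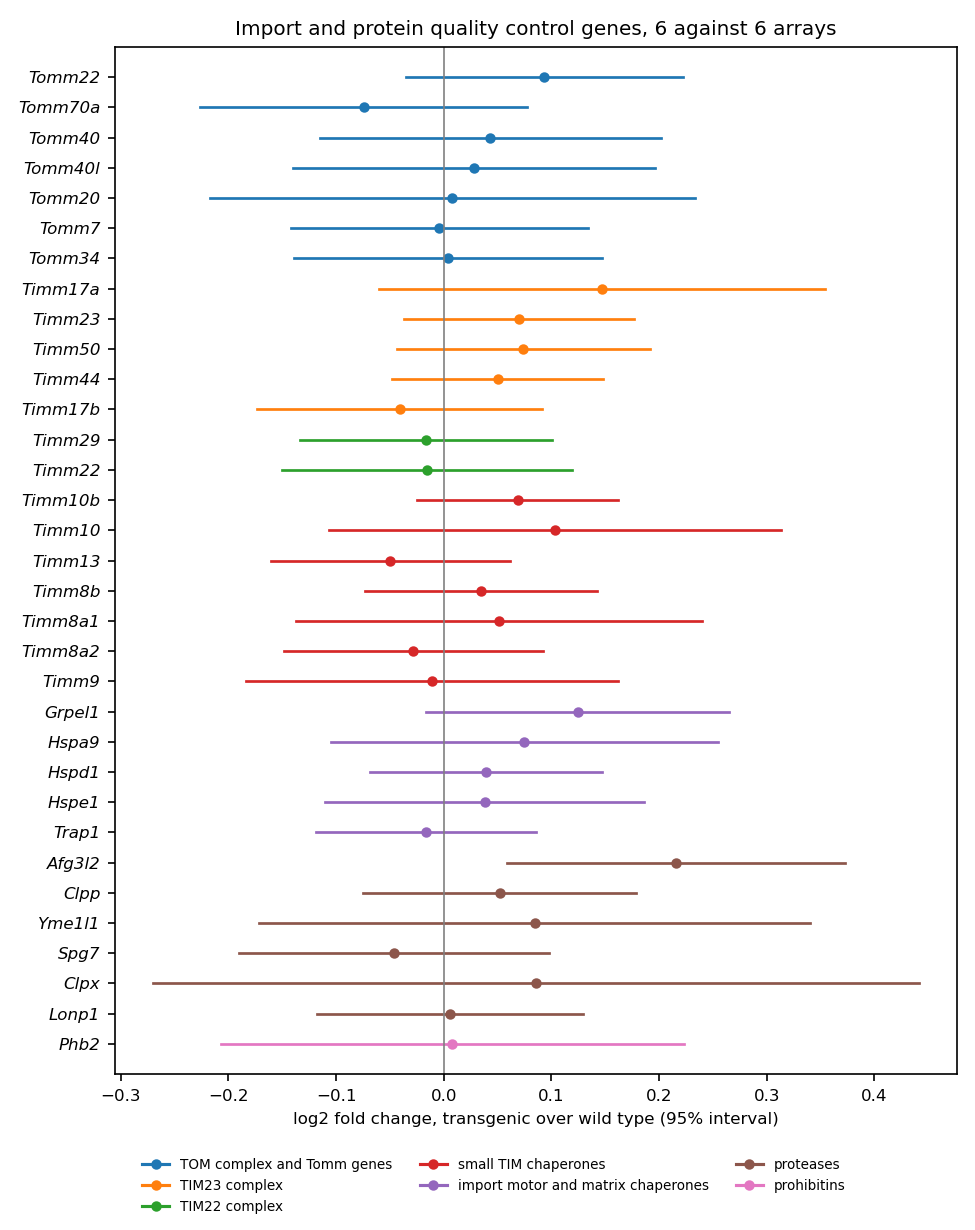
Log2 fold change, transgenic over wild type, of the 33 members (points) with limma's 95% interval (lines), 6 arrays against 6, coloured by role and ordered by unadjusted p within a role. The interval of Afg3l2, from 0.06 to 0.37, is the one that leaves out 0, and that of Clpx, from -0.27 to 0.44, is the widest.

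Levels below are log2 intensities of a probe set, which can be compared between arrays but not between genes. For the members described in full the lowest, median and highest of 6 arrays are given for each genotype.

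Of the 7 Tomm genes, most of them subunits of the outer-membrane complex, 5 were higher and 2 lower, with a median log2 fold change of 0.01. Tomm22 encodes the central receptor that joins the other receptors to the pore. In wild-type muscle its level was 8.36 at the lowest, 8.49 at the median and 8.57 at the highest, and in transgenic muscle 8.46, 8.56 and 8.70. The ranges overlapped, with 3 transgenic arrays above all wild-type arrays. The log2 fold change was 0.09 ± 0.06 (SE; 95% interval -0.03 to 0.22; limma adjusted p = 0.999), and its other probe set gave 0.08 ± 0.09.

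Tomm20, the receptor for precursors with a cleavable targeting sequence, was included in full for its bright probe set. Its level ran from 9.81 through 10.33 to 10.52 in wild-type and from 10.08 through 10.26 to 10.50 in transgenic muscle. The transgenic arrays lay within the wild-type range, and the log2 fold change was 0.01 ± 0.11 (SE; 95% interval -0.22 to 0.23; limma adjusted p = 0.999). Its 5 probe sets gave log2 fold changes from -0.11 to 0.01, 2 of them above 0 and 3 below.

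Tomm70a, the receptor for carrier precursors, had the lowest log2 fold change of the members, -0.07 ± 0.07. Its level was 8.08 to 8.56 in transgenic and 8.26 to 8.40 in wild-type muscle, so that transgenic arrays lay on either side of the wild-type range. Its other probe sets gave -0.01, 0.11 and -0.01. Tomm40, the pore of the complex, was at 0.04 ± 0.07 and its paralogue Tomm40l at 0.03 ± 0.08. Tomm7, a small subunit that modulates assembly of the complex, was at -0.0042 ± 0.06, with its other probe sets between -0.06 and 0.03, and Tomm34, a cytosolic co-chaperone, was at 0.0041 ± 0.07.

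The TIM23 genes had 4 of 5 members higher, with a median log2 fold change of 0.07. Timm17a, a subunit of the TIM23 channel, was at 9.33, 9.84 and 10.0001 (lowest, median, highest) in wild-type and at 9.75, 9.93 and 10.09 in transgenic muscle. Wild-type replicate 7 alone lay below the transgenic range, and 2 transgenic arrays lay above all wild-type arrays. The log2 fold change was 0.15 ± 0.10 (SE; 95% interval -0.06 to 0.35; limma adjusted p = 0.999), and 0.06 without wild-type replicate 7. Among arrays of day 1, which held both arrays of the smaller of 2 chip lots (wild-type replicate 7 and transgenic replicate 1), it was 0.30. Among those of day 2 it was -0.0023, and among all arrays without the smaller lot 0.06.

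Timm23, the channel-forming subunit itself, was at 11.56, 11.73 and 11.78 in wild-type and at 11.72, 11.77 and 11.84 in transgenic muscle. Every one of the 6 transgenic values exceeded the mean of the wild type, and 3 of them lay above every wild-type array. The lowest wild-type value was that of replicate 7, of the smaller chip lot. The log2 fold change was 0.07 ± 0.05 (SE; 95% interval -0.04 to 0.18; limma adjusted p = 0.999). It was 0.13 on day 1, 0.01 on day 2 and 0.04 without the smaller lot. Timm50, the receptor of the complex, was at 0.07 ± 0.06, with 0.16 on day 1 and -0.0099 on day 2, and Timm44, which anchors the Hsp70 motor, was at 0.05 ± 0.05. Timm17b, the alternative to Timm17a in the channel, was at -0.04 ± 0.06.

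The TIM22 genes were at -0.02 ± 0.06 for Timm22, the core of the carrier-inserting complex, and -0.02 ± 0.06 for Timm29, one of its subunits (each limma adjusted p = 0.999). The second probe set of Timm22 gave 0.11 ± 0.07. Timm29 was at 9.81, 9.90 and 9.93 in wild-type and at 9.71, 9.91 and 9.97 in transgenic muscle, where 2 arrays of day 1 lay below and 2 arrays above the wild-type range.

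Of the 7 small chaperones of the intermembrane space 4 were higher and 3 lower, with a median log2 fold change of 0.03. Timm10b, a chaperone bound to the TIM22 complex, was the closest to separating the genotypes. Its wild-type level was 8.29 at the lowest, 8.32 at the median and 8.34 at the highest, and its transgenic level 8.31, 8.40 and 8.45. In all, 5 of the 6 transgenic arrays lay above every wild-type array, while the other, transgenic replicate 1, lay within their range. The difference was small, with a log2 fold change of 0.07 ± 0.04 (SE; 95% interval -0.02 to 0.16; limma adjusted p = 0.999). Its other probe sets gave 0.08, 0.08 and 0.0062.

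Timm10, a partner of Timm9 in the main chaperone ring, was at 0.10 ± 0.10, with -0.01 on day 1 and 0.22 on day 2. Timm8b was at 0.03 ± 0.05, Timm8a1, whose human counterpart is mutated in deafness-dystonia syndrome, at 0.05 ± 0.09, and their partner Timm13 at -0.05 ± 0.05. Timm9 (-0.01 ± 0.08) and Timm8a2 (-0.03 ± 0.06) had mean intensities at the 9.93 and 1.87 percentiles of all probe sets, where a change in transcript could be masked. The other 31 members were brighter than the median probe set.

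Of the 5 genes of the import motor and matrix chaperones 4 were higher, with a median log2 fold change of 0.04. Grpel1 encodes the nucleotide exchange factor that resets the Hsp70 motor. It was at 8.99, 9.08 and 9.22 in wild-type and at 9.03, 9.19 and 9.45 in transgenic muscle, with 2 transgenic arrays above all wild-type arrays. The log2 fold change was 0.12 ± 0.07 (SE; 95% interval -0.02 to 0.27; limma adjusted p = 0.999), close to the same on day 1 (0.12) and day 2 (0.13).

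Hspa9, the mitochondrial Hsp70 that the factor serves, was at 0.07 ± 0.08 by its brightest probe set. Its 4 probe sets did not share a sign, the others giving 0.03, -0.08 and -0.02. Without wild-type replicate 7 the brightest gave 0.0028.

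Hspd1, the chaperonin that encloses unfolded matrix proteins, was at 10.11, 10.21 and 10.26 in wild-type and at 10.14, 10.26 and 10.34 in transgenic muscle. The ranges overlapped for most arrays, with 2 transgenic arrays above and 1 wild-type array below the other genotype. The log2 fold change was 0.04 ± 0.05 (SE; 95% interval -0.07 to 0.15; limma adjusted p = 0.999). Hspe1, which caps the chaperonin and shares the promoter region shown above, was at 0.04 ± 0.07, and its second probe set gave 0.03 ± 0.08. Trap1, the mitochondrial member of the Hsp90 family, was at -0.02 ± 0.05.

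**Figure D2:**
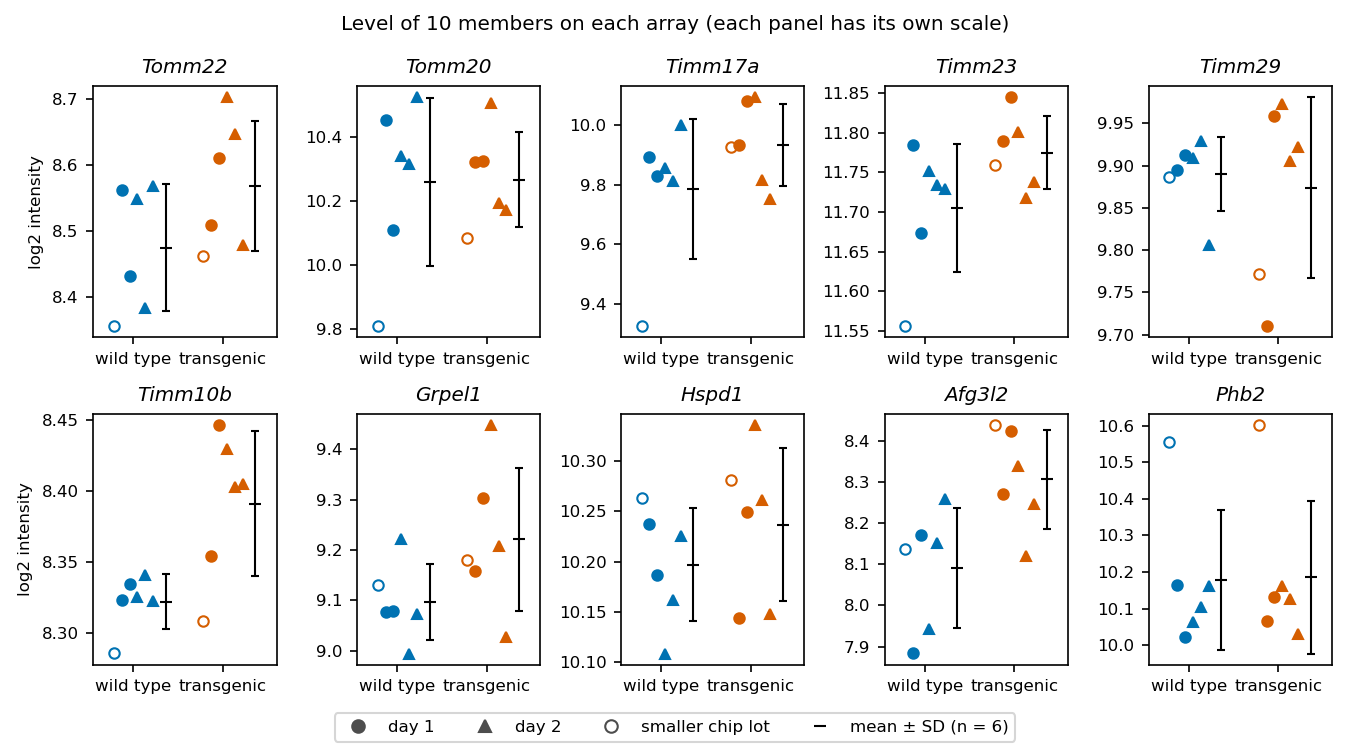
Log2 intensity on each array of the 10 members described in full (points), with the mean and SD of 6 arrays beside them; circles are day 1, triangles day 2 and open symbols the smaller chip lot, and each panel has its own scale. All panels overlap between genotypes, Timm10b and Afg3l2 least, and the open symbols lie apart in Timm17a (wild type, 9.33) and Phb2 (10.55 and 10.60).

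Among the 6 ATP-dependent protease genes 5 were higher, with a median log2 fold change of 0.07. Afg3l2 had the largest log2 fold change of the 33 members. It encodes a subunit of the m-AAA protease, an inner-membrane enzyme that faces the matrix, degrades damaged membrane proteins and matures a mitochondrial ribosomal protein. Its level was 7.88 at the lowest, 8.14 at the median and 8.26 at the highest in wild-type, and 8.12, 8.30 and 8.44 in transgenic muscle. Every one of the 6 transgenic values exceeded the mean of the wild type and 4 lay above every wild-type array, while 2 wild-type arrays lay below every transgenic array.

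The log2 fold change of Afg3l2 was 0.22 ± 0.07 (SE; 95% interval 0.06 to 0.37), or 1.16-fold (1.04 to 1.29). The unadjusted p was 0.0101, and the limma adjusted p of 0.708 was far from the threshold. Its second probe set gave 0.18 ± 0.08 (limma, unadjusted p = 0.0463). On day 1 the log2 fold change was 0.31 ± 0.10 and on day 2 it was 0.12 ± 0.10. Leaving out 1 array gave values between 0.17 and 0.25.

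Spg7 encodes paraplegin, the partner of Afg3l2 in the m-AAA protease, and was at -0.05 ± 0.07 (limma adjusted p = 0.999). The difference between the partners' fold changes was not tested. Yme1l1, the protease on the other face of the inner membrane, was at 0.08 ± 0.12, its 3 probe sets all above 0 (0.05 to 0.08). Clpp, the proteolytic core of a matrix protease, was at 0.05 ± 0.06. Its unfoldase partner Clpx was at 0.09 ± 0.17 and varied most between arrays, from 7.99 to 9.19 in transgenic and from 7.93 to 8.69 in wild-type muscle. The highest Clpx value was that of transgenic replicate 4. Lonp1, the protease that removes oxidised matrix proteins, was at 0.0062 ± 0.06.

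Phb2, a prohibitin that forms rings in the inner membrane and binds the m-AAA protease, was at 10.02, 10.13 and 10.55 in wild-type and at 10.03, 10.13 and 10.60 in transgenic muscle (log2 fold change 0.01 ± 0.10, SE; 95% interval -0.21 to 0.22; limma adjusted p = 0.999). The highest value of each genotype came from the smaller of 2 chip lots, transgenic replicate 1 and wild-type replicate 7, and the other 10 arrays lay between 10.02 and 10.16. The third Phb2 probe set, at -0.03 ± 0.08, was likewise high on these arrays, at 9.35 and 9.45 against 8.98 to 9.24. The second, at 0.04 ± 0.06, was not, at 9.25 and 9.05 against 9.18 to 9.40.

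Over the 18 members with several probe sets, all probe sets were higher in 8 genes and all lower in 4. In the remaining 6, Hspa9, Phb2, Timm22, Tomm20, Tomm7 and Tomm70a, they disagreed in sign. Of all 65 probe sets 41 were higher, where 48.6% of probe sets were, and the 2 of Afg3l2 were those with an unadjusted p under 0.05, where 4.63% were.

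The arrays differed in ways that touch these genes. Hybridization took place on 2 days with 3 arrays of each genotype on each. The arrays were grouped here into 4 runs by gaps between their recorded hybridization times, and the runs held the genotypes unequally. Log2 fold changes were above 0 on both days in 12 members, below 0 on both in 5 and opposite in 16, where 25% of all genes were above 0 on both. The shares of all genes below 0 on both days or opposite were not computed. The 2 arrays of the smaller chip lot were both of day 1, so differences between the days include that lot. Their Gapdh 3′ minus 5′ control signal, a measure of RNA integrity, was 0.18 log2 units each, against -0.09 to -0.0017 elsewhere. By genotype its mean was -0.01 (SD 0.10, n = 6) for transgenic and -0.0016 (SD 0.10, n = 6) for wild-type arrays (two-sided exact permutation p = 0.766). The same measure for actin was -0.17 (SD 0.04, n = 6) for transgenic and -0.11 (SD 0.07, n = 6) for wild-type arrays (two-sided exact permutation p = 0.121). The part of RNA integrity in the members' values was not tested. Without these arrays the members' median log2 fold change was 0.03, and 23 were above 0.

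**Figure D3:**
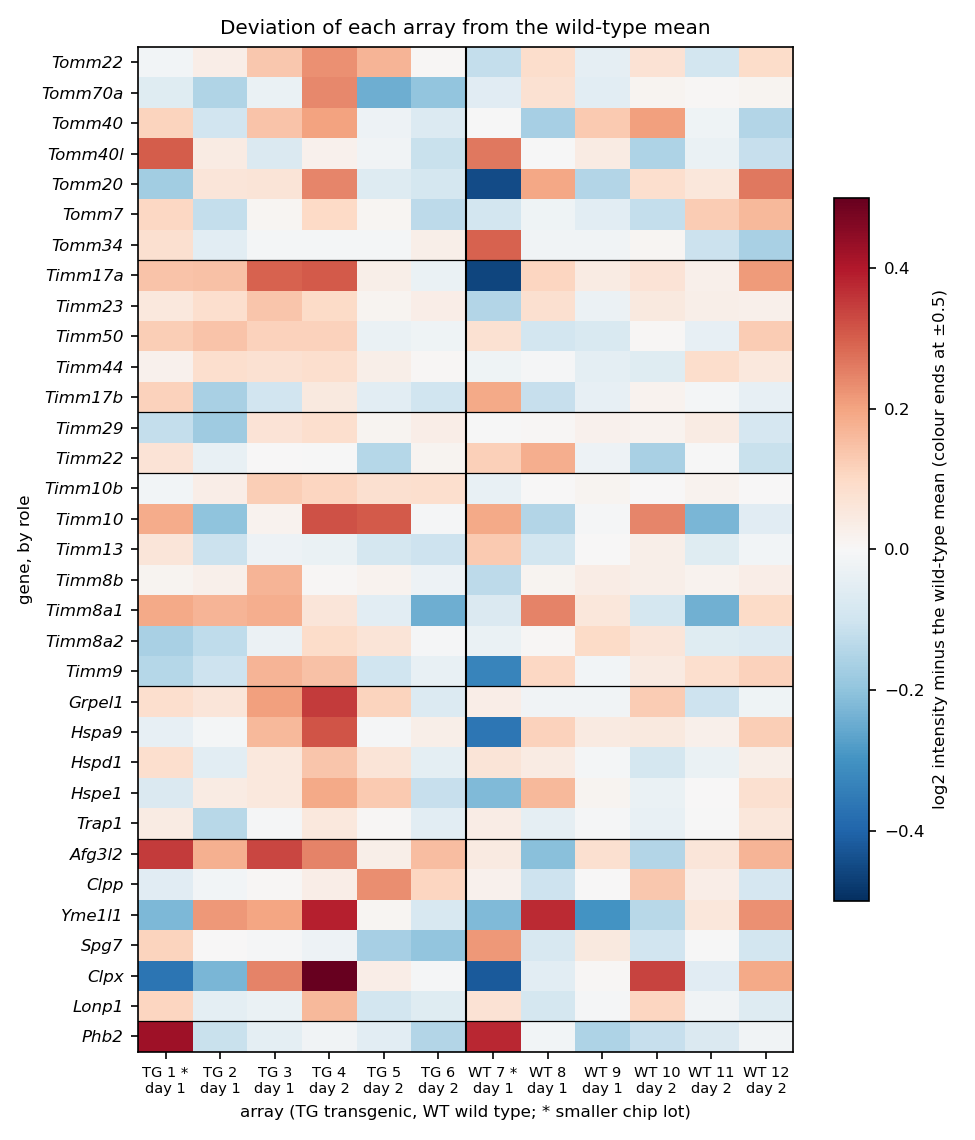
Log2 intensity of each member (rows, by role) on each array (columns) minus the member's wild-type mean, red above and blue below, with colour ending at 0.5 in either direction; stars mark the smaller chip lot. Transgenic replicate 4 exceeds the mean of the wild type for 28 of 33 members and transgenic replicate 6 in 10, while wild-type replicate 7 holds the lowest value of all arrays for 10 members.

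Arrays of one genotype differed from each other over many members at once. Transgenic replicate 4 exceeded the mean of the wild type for 28 of 33 members and held the highest of all 12 values in 12 of them, with a median deviation of 0.11 log2 units. The shares over all genes were not computed. This array also had the highest mean for other pathway genes (8.86) and mitochondrial ribosomal protein genes (8.72). The same held for respiratory chain (10.93) and cytosolic chaperone genes (8.92), lists described below. Among the cell type marker lists it was highest for fast muscle and endothelial markers alone. Transgenic replicates 1, 2, 3, 5 and 6 were above the wild-type mean in 21, 15, 23, 18 and 10 members. Averaged over the 33 members, transgenic arrays ran from 8.64 to 8.84 (mean 8.72, SD 0.07) and wild-type arrays from 8.65 to 8.71 (mean 8.68, SD 0.02). The transgenic range thus enclosed the wild-type one.

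Proteins of this machinery work in pairs, and 8 pairs of partners were compared across the 12 arrays with both genotypes pooled. The pairs were chosen after seeing the data, so their p-values, adjusted over these 8 alone, are descriptive. The permutations treated the arrays as exchangeable across genotype, day and chip lot, and other pairs of genes were not compared. Timm17a and Timm23, which form the import channel together, varied in parallel (Pearson r = 0.90, permutation p = 0.00072, adjusted over 8 pairs 0.00576; Spearman rho = 0.74, permutation p = 0.0079, adjusted 0.0438). Without the 2 arrays farthest from the median of Timm17a r was 0.68, and within days it was 0.95 and 0.69 (n = 6 each). Tomm20 and Tomm22 gave r = 0.67 (permutation p = 0.0156, adjusted 0.0622) and rho = 0.72 (permutation p = 0.0109, adjusted 0.0438), falling to r = 0.47 without the 2 arrays farthest from the median, with 0.91 on day 1 and 0.35 on day 2.

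The other 6 pairs had r between -0.24 and 0.43 and passed by neither measure, while Tomm20 and Tomm22 passed by rho alone. The lowest r was that of Timm9 and Timm10, and Timm9 had a dim probe set. Hspd1 and Hspe1, which share a promoter region, were at r = 0.31 (permutation p = 0.322, adjusted 0.591) and rho = 0.27 (permutation p = 0.391, adjusted 0.594). Within days their r was -0.38 on day 1 and 0.92 on day 2, and the part of the shared region was not tested. The arrays share normalisation and RNA quality, and their part in these correlations was not tested.

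**Figure D4:**
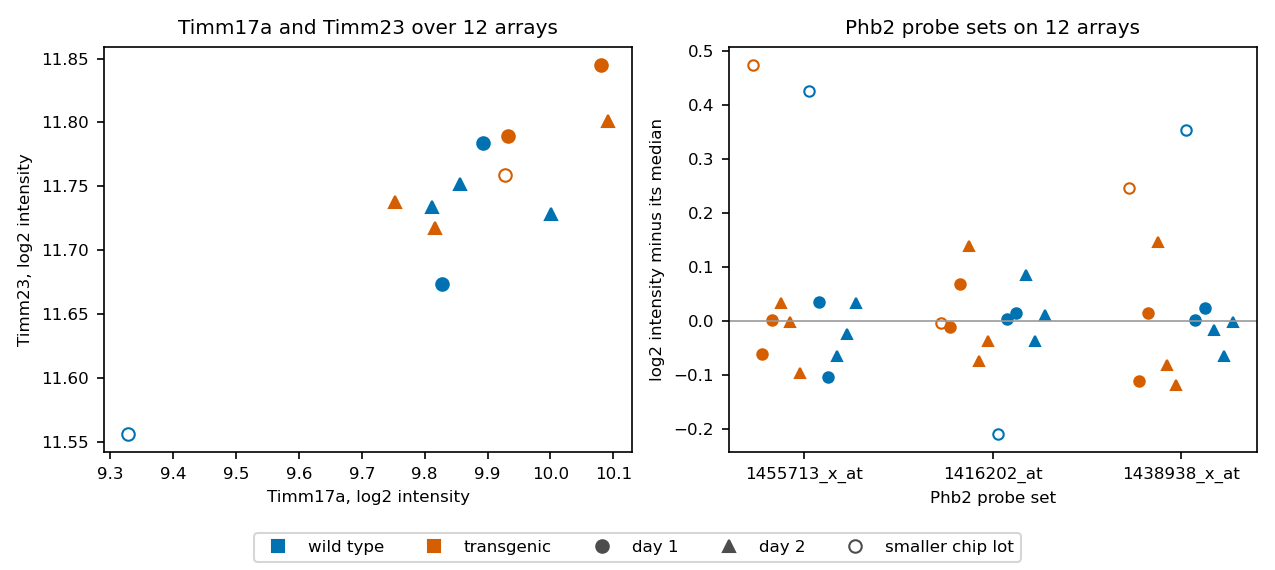
Left, log2 intensity of Timm23 against Timm17a on 12 arrays, with r = 0.90. Right, the 3 Phb2 probe sets as log2 intensity minus each probe set's median; blue is wild type, orange transgenic, circles day 1, triangles day 2 and open symbols the smaller chip lot, which lies above the other arrays in the probe sets whose names end in x_at but not in the middle one.

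Other genes of the pathway, from a list of 42 symbols of import, processing, quality control and the mitochondrial stress response, were measured in part. Of 33 measured, 23 were higher and 10 lower with a median log2 fold change of 0.03, and none passed. The 4 with the smallest p were all higher: Gfer, an oxidase of intermembrane-space import, at 0.17 ± 0.06, Pmpcb, a subunit of the protease that clips off targeting sequences, at 0.20 ± 0.09, and the cristae-organising genes Immt at 0.16 ± 0.07 and Chchd3 at 0.16 ± 0.07 (limma adjusted p from 0.808 to 0.999).

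Lists of genes whose products pass through the import machinery had a larger part of their members above 0. Mitochondrial ribosomal protein genes were higher in 63 of 74 cases with a median log2 fold change of 0.07, and genes with respiratory chain prefixes, assembly factors included, in 81 of 87 with a median of 0.07. None of either list passed. Mrps12 (0.18 ± 0.06), Mrpl47 (0.17 ± 0.06), Mrpl37 (0.16 ± 0.06) and Mrpl44 (0.16 ± 0.06) had the smallest p of the ribosomal genes, and Cox8b (0.19 ± 0.05), Atp5g1 (0.21 ± 0.06), Uqcrq (0.20 ± 0.06) and Ndufb5 (0.19 ± 0.06) those of the respiratory chain. Cytosolic chaperone genes were lower in 11 of 16 cases with a median of -0.03, Tcp1 (-0.11 ± 0.05), Cct5 (-0.10 ± 0.05) and Cct4 (-0.08 ± 0.05), subunits of the cytosolic chaperonin, and Hspa1a (-0.09 ± 0.07) having the smallest p. The differences between the lists were not tested.

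**Figure D5:**
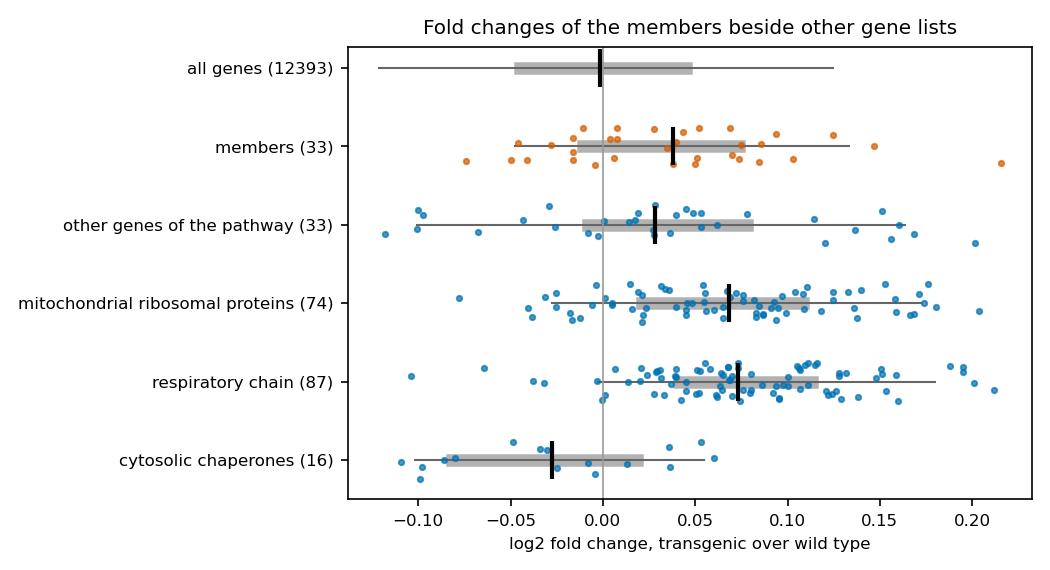
Log2 fold changes, transgenic over wild type, of the 33 members (orange) and of other gene lists (blue); thick grey bars span the quartiles, thin lines the 5th to 95th percentiles and black ticks the medians. The members' median of 0.04 lies between that of all genes (-0.0013) and those of mitochondrial ribosomal and respiratory chain genes (both 0.07).

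All 10 markers of fast muscle had bright probe sets, the dimmest that of Myh1 at the 99.57 percentile of mean intensity, although brightness also depends on the probe and gives no abundance. Their median log2 fold change was -0.00018. Mitochondria-rich slow fibres and other cell types are also present in whole muscle. All 8 genes of the slow-fibre list, which also holds Myh2 of fast IIa fibres, were lower in transgenic muscle, with a median of -0.51. Their median SE was 0.26, and 1 had an unadjusted p under 0.05 (limma), where 4.91% of genes did. Their summed intensities were 3334 to 6896 in transgenic and 3906 to 9504 in wild-type arrays. All 5 measured adipocyte markers were lower (median -0.52; sums 2338 to 3135 against 2291 to 4330) and all 6 endothelial markers higher (median 0.19; sums 1311 to 1508 against 1220 to 1316). At an unadjusted p under 0.05 (limma) were 3 of the adipocyte and 4 of the endothelial markers. No macrophage, Schwann cell, fibroblast or red blood cell marker was. The medians were 0.02 for macrophage, 0.16 for Schwann cell, -0.13 for fibroblast and 0.07 for red blood cell markers. None of these genes passed the test, and their part in the members' values was not tested. In whole tissue, fewer cells of a type and less RNA per cell cannot be told apart.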

How the data were processed

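The deposited values are linear intensities per probe set and array, made by the authors with RMA per the submitters' processing notes; version and probe definitions are not given in the sources used here. The deposited settings text of the arrays, classed as other than expression values, was used only for hybridization date and time and chip lot. It names no run, and runs were formed here from gaps between the hybridization times. Array medians lay between 98.0 and 103.2, and correlations between arrays between 0.985 and 0.997. No probe set could be classed against background, and the number of arrays limits the precision.

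Values were taken to log2 with no pseudocount. Of 22690 probe sets 64 controls were left out. Of the 22626 tested, 20380 carried 1 symbol in the platform table, 691 several and 1555 none. All 33 members matched RefSeq by Entrez identifier. Genotypes, taken from the titles, were tested in R 4.3.3 by lmFit and eBayes of limma 3.58.1, two-sided and with no covariate. Single values were compared by exact permutation over 924 regroupings, and partner pairs by 100000 permutations. The limma step was tested on simulated data.

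Given in full were the member with the smallest p of each role, any with an unadjusted p under 0.05 or no overlap, and the 3 brightest; probe sets that disagree in sign are named, as are up to 4 genes of each other list. The members and lists were chosen with earlier results of these data known, and the motifs and pairs after seeing the data. Alternatives covered normalization, pseudocount, a dim-probe filter, the variance model, day, run, lot, single arrays and the mean over probe sets.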

Additional observations from a re-analysis of the deposited data

Results flagged for a closer look

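Within each genotype the members were examined for an array whose distance to the nearest other array exceeded Dixon's 95% critical share of the group's range. Of 66 groups examined 10 had such an array. The rule's rate of about 1 in 20 groups holds for normal and independent values, whereas the members share arrays. The share over all genes was not computed. Of these 10 values, 6 were on wild-type replicate 7 and 2 on transgenic replicate 1, the arrays of the smaller chip lot.

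On wild-type replicate 7 the level was low for Timm17a (9.33 against 9.81 to 10.0001 on the other wild-type arrays), Hspa9 (9.32 against 9.71 to 9.81), Timm8b (10.003 against 10.15 to 10.17), Timm10b (8.29 against 8.32 to 8.34) and Timm9 (4.20 against 4.52 to 4.65), and high for Phb2 (10.55 against 10.02 to 10.16). Without this array the log2 fold changes were 0.06 for Timm17a, 0.0028 for Hspa9, 0.0085 for Timm8b, 0.06 for Timm10b, -0.08 for Timm9 and 0.08 for Phb2.

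On transgenic replicate 1 Phb2 was high, at 10.60 against 10.03 to 10.16, and so was Tomm40l, at 8.55 against 8.13 to 8.29. Without it their log2 fold changes were -0.08 and -0.03. On arrays of the larger lot, Timm8b was high in transgenic replicate 3 (10.30 against 10.11 to 10.16) and Timm29 low in wild-type replicate 12 (9.81 against 9.89 to 9.93). The part of chip lot and RNA integrity in these values was not tested.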

How the results depend on the processing

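No member passed the threshold under any of the 23 alternatives (limma; lowest adjusted p of any member 0.466, that of Afg3l2 with dim probe sets left out). Afg3l2 stayed above 0 throughout, between 0.12 on day 2 and 0.31 on day 1. The number of members above 0 was 19 to 23 under the other alternatives and 20 to 26 on leaving out 1 array, and their median 0.02 to 0.04 and 0.01 to 0.06. No paired analysis was possible because the titles number the genotypes 1 to 6 and 7 to 12, so that no number is shared.

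Probe sets called over the whole array were 10 higher and 6 lower. Lower calls were 11 with day as a block. With run as a block 4 were higher and 2 lower, on day 1 alone 1 and 0, on day 2 alone 1 and 1, and on leaving out 1 array 4 to 12 and 1 to 6. Smaller groups leave less power within a day.

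Signs turned in 18 members under alternatives other than leaving out 1 array, among them Timm17a, Timm10, Timm50, Hspa9 and Tomm70a, whose log2 fold changes were 0.15, 0.10, 0.07, 0.07 and -0.07. With quantile normalization Tomm7 was at 0.00056 and Tomm34 at -0.0062. With run as a block Tomm20 was at -0.0258 and Phb2 at -0.0036. On day 1 alone Tomm40l was at -0.0091, Tomm7 at 0.0545, Tomm34 at -0.0813, Timm10 at -0.0125, Timm9 at 0.0555 and Hspd1 at -0.0035. On day 2 alone Tomm20 was at -0.103, Timm17a at -0.0023, Timm50 at -0.0099, Timm29 at 0.0518, Timm22 at 0.0484, Timm8b at -0.0273, Timm8a1 at -0.0015, Timm8a2 at 0.0728, Lonp1 at -0.0035 and Phb2 at -0.0032. Without the smaller lot Tomm20 was at -0.0454 and Timm29 at 0.0036. With the mean over probe sets Tomm70a was at 0.0031, Tomm20 at -0.0239, Timm22 at 0.0462 and Hspa9 at -0.00091. On leaving out 1 array the ranges crossing 0 were -0.0273 to 0.0805 for Tomm40l, -0.0285 to 0.063 for Tomm34, -0.036 to 0.0164 for Timm29, -0.0771 to 0.0153 for Timm9, -0.0254 to 0.0273 for Lonp1, -0.0751 to 0.0831 for Phb2, -0.0818 to 0.0606 for Tomm20, -0.0283 to 0.0282 for Tomm7, -0.0303 to 0.00825 for Trap1, -0.0639 to 0.176 for Clpx, -0.0483 to 0.0207 for Timm22 and -0.0064 to 0.0706 for Hspe1. The cause was not tested.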

Other observations

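The 15 members whose promoter window held CCGGAAG had a median log2 fold change of 0.04, with 12 above 0, and the 14 whose windows did not had a median of 0.0070, with 8 above 0. These values describe the members and the difference was not tested.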
